A study of Mus musculus with 4 samples.

Results

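The genes described here are the G1 cyclins, CDK inhibitors and RB family members that set the passage from G1 into S phase, followed in mouse embryonic stem cells (mESC) after deletion of Ogt, the gene of the O-GlcNAc transferase. They were chosen by symbol, and all 10 had a row among the 25239 gene symbols of each count table: Ccnd1, Ccnd2, Ccnd3, Ccne1, Ccne2, Cdkn1b, Cdkn2a, Cdkn2b, Rb1 and Rbl2. All 10 also had enough counts to be tested. The cells of both groups carried the genotype Ogt fl/fl, in which loxP sites flank the gene. The Ogt iKO group was 2 libraries from cells kept for 6 days in 4-OHT (4-hydroxytamoxifen), and the control group was 2 libraries from cells kept without it. Both groups grew on feeder fibroblasts treated with mitomycin C, in medium with LIF, and polyadenylated RNA was sequenced after cell sorting, which by the labels also removed the feeders. YFP+ cells were collected for the 4-OHT cultures alone, so this selection, the ligand itself and the loss of Ogt cannot be told apart. The labels used here name neither the recombinase nor the number of clones.

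In most dividing cells, mitogens raise D-type cyclins, which activate CDK4 and CDK6. These kinases and cyclin E with CDK2 phosphorylate RB and its relatives p107 and p130, which releases E2F transcription factors and the S phase genes they drive. INK4 inhibitors bind CDK4 and CDK6, while CIP/KIP inhibitors such as p27 bind cyclin E with CDK2. Embryonic stem cells are known for a short G1, high cyclin E and CDK2 activity, low INK4 inhibitors and an RB protein that is kept mostly phosphorylated.

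Across the 10 genes, the cyclin E gene Ccne1 fell to 17.9% of control, while the INK4 genes Cdkn2a and Cdkn2b rose 4.73-fold and 3.60-fold and the RB gene Rb1 rose 2.48-fold. Ccnd3 and the p27 gene Cdkn1b fell by smaller amounts, Ccnd2 was called higher on the strength of 1 treated library, and Ccnd1, Ccne2 and Rbl2 did not pass the threshold. At an adjusted p under 0.05, 4 of the 10 were higher and 3 were lower (quasi-likelihood test of edgeR, Benjamini-Hochberg adjustment over 14525 genes). The background was high, since 65.3% of all genes passed (33.2% higher, 32.0% lower). The count of 7 in 10 is close to that background, so it is no result about these genes. Scaling by library totals alone in place of trimmed means (TMM) shifted the median over all genes (log2) from 0.024 to 0.19 and the higher share of calls from 50.9% to 65.1%, and of the 10 genes it turned the direction of Ccnd1, which was not called under either.

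Library totals ran from 14668489 to 16504204 counts. Ogt, whose loss checks the labels, had 25.6 and 25.1 CPM (counts per 1000000 counts, TMM-scaled) in the Ogt iKO libraries and 191 and 203 CPM in the controls. Markers of the labelled cell type were present, with Pou5f1 at 489 to 894 CPM in the 4 libraries and none of the 14 mESC markers at 0. Their summed level was 3368 and 3787 CPM in Ogt iKO against 6042 and 6026 CPM in control, with 13 of 14 lower (32.0% of all genes were). Fibroblast markers were present in every library, none of the 22 at 0, and their summed level was 4233 CPM in Ogt iKO replicate 1, 1586 CPM in Ogt iKO replicate 2, and 1679 and 1866 CPM in the controls. Of these markers 5 were called higher and 0 lower (22.7% higher, against 33.2% of all genes). In Ogt iKO replicate 1, 20 of the 22 were above both controls. In Ogt iKO replicate 2, 17 (the collagens of the list among them) were below both controls and the 5 called ones were above both, with Tagln at 222 CPM against 44.2 and 34.9 in control, Acta2 at 75.9 against at most 35.1, and Sparc, Pdgfrb and Twist1 as the others. These 5 were named after their values were seen. Ogt iKO replicate 1 stands apart in the summed level, and results that rest on it are given with and without it. Markers of primitive endoderm summed to 470 and 384 CPM in Ogt iKO against 205 and 198 CPM in control. Of these, 5 of 7 (71.4%) were higher, against the same 33.2%. Those of trophectoderm summed to 376 and 392 CPM in Ogt iKO against 130 and 118 CPM in control. Of 7 tested, 5 were higher and 1 lower, and Elf5 had 0 counts in 3 libraries. The rise of the trophectoderm sum came mostly from the keratin genes Krt18 and Krt8 (log2 fold changes 3.60 and 3.71). Krt18 went from 22.2 and 17.3 CPM to 238 and 243 CPM. Tfap2c, the highest in control, fell from 86.3 and 84.2 CPM to 17.6 CPM in each Ogt iKO library. Gata3, Eomes and Hand1 were higher but reached at most 19.9 CPM, and Cdx2 was not called. All were named after their values were seen. Since RNA came from bulk cells, fewer cells of a type and less RNA per cell cannot be told apart, and the part of these other cell types in the results below was not tested.

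The sequences upstream of the genes with the largest changes are shown first, because 3 of their 4 starts lie within one stretch of chromosome 4. Each is the 250 bases before a transcription start as RefSeq annotates it (build GRCm38.p6), on the strand of the gene. The promoter table held 6 of the 10 genes, with Ccnd1, Ccnd2, Ccne2 and Rb1 missing. Capitals mark the matches, on either strand, to an E2F motif (TTTCGCGC, TTTGGCGC or TTTCCCGC), the E-box CACGTG or the GC box GGGCGG. Of 32851 promoters of the same length, 1.53% held one of the E2F motifs, 6.02% the E-box and 32.7% the GC box.

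The upstream region of Ccne1, chr7:38107491-38107740 (minus strand), is shown because this gene fell most.
Ccne1: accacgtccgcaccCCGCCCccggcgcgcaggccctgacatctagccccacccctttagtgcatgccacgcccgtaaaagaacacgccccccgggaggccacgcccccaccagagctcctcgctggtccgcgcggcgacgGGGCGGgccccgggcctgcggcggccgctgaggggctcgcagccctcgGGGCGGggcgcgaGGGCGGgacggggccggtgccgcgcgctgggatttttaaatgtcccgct

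Cdkn2a has 2 starts 12427 bases apart, which give rise to p19ARF (upstream start) and p16INK4a (downstream start) through different first exons, and the Cdkn2b start lies a further 16413 bases upstream. The 3 regions are chr4:89294620-89294869, chr4:89282193-89282442 and chr4:89311033-89311282, all on the minus strand.
Cdkn2a, ARF start: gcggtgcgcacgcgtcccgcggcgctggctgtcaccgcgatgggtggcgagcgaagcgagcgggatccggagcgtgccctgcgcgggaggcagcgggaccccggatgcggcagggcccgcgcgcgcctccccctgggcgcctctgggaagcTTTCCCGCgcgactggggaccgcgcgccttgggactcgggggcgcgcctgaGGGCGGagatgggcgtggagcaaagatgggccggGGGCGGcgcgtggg
Cdkn2a, INK4a start: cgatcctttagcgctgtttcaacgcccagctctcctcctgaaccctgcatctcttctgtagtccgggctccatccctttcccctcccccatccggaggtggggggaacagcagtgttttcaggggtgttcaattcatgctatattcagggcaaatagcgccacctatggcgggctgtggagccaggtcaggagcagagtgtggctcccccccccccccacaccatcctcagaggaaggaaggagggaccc
Cdkn2b: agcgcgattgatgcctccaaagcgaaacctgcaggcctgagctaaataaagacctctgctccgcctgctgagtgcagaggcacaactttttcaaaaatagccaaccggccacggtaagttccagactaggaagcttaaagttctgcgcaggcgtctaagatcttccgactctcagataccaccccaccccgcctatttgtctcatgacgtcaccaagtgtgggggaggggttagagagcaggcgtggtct

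The ARF start held the motif TTTCCCGC, whose first base is 99 bases before the start, and 2 GC boxes. Ccne1 had 4 GC boxes and no match to the E2F motifs as spelled here, and the other 2 regions had no match to any of the motifs. DNA methylation falls mainly on CpG sites, and the series is about its loss, so these were counted. There were 40 CpG sites before the ARF start and 34 before Ccne1, against 12 for Cdkn2b and 7 for the INK4a start, with a median of 6 over all promoters. Only 1.31% of promoters held as many as the ARF start. Among the regions not printed, Cdkn1b had 28 CpG sites, the 2 starts of Ccnd3 had 11 and 19, and Rbl2 had 10. No methylation values were analysed here, and matches are descriptions of sequence only.

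Cyclin E showed the largest change. Ccne1 encodes cyclin E1, the activating subunit of CDK2 at the start of S phase, and lies on chromosome 7 from 38097984 to 38107534 (GRCm38, minus strand). Its level was 463 and 419 CPM in control replicates 1 and 2 and 74.2 and 83.6 CPM in Ogt iKO replicates 1 and 2. Both treated libraries lay far below both controls. The log2 fold change was -2.48 (SE 0.0799, approximate 95% interval -2.67 to -2.30, adjusted p 4.053e-07, edgeR), and only 45 of the 14525 genes tested, itself included, fell as much or more. In the 12 alternative fits the value ran from -2.60 to -2.32.

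Ccne2, the gene of the related cyclin E2 (chromosome 4 from 11191351 to 11204779), stayed low in all libraries, with 18.5 and 14.5 CPM in control and 17.4 CPM in each Ogt iKO library. The treated values lay between the 2 controls. Its log2 fold change was 0.075 (approximate 95% interval -0.24 to 0.39, adjusted p 0.657, edgeR), so a fall like that of Ccne1 lay outside the interval. Of the exon length of Ccne2, 17.4% lies under exons of Ints8 on the opposite strand, which had 93.5 to 146 CPM, and the strand used for counting is not given in the sources used here. Reads of Ints8, which was called lower (log2 fold change -0.59, adjusted p 6.086e-05, edgeR), could therefore be part of the Ccne2 count.

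The balance of the 2 cyclin E genes moved with the fall of Ccne1. Per kilobase of exon, Ccne2 made up 2.95% and 2.57% of cyclin E reads in the controls and 15.1% and 13.7% in the Ogt iKO libraries. A share within a library does not depend on how libraries are scaled. The difference of 11.7 percentage points was larger than the spread within groups (SD 0.265 and 1.01), but an exact two-sided permutation test of 2 libraries against 2 cannot go below p 0.333, which is what it gave (0.417 adjusted over 5 cyclin shares).

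**Figure D1:**
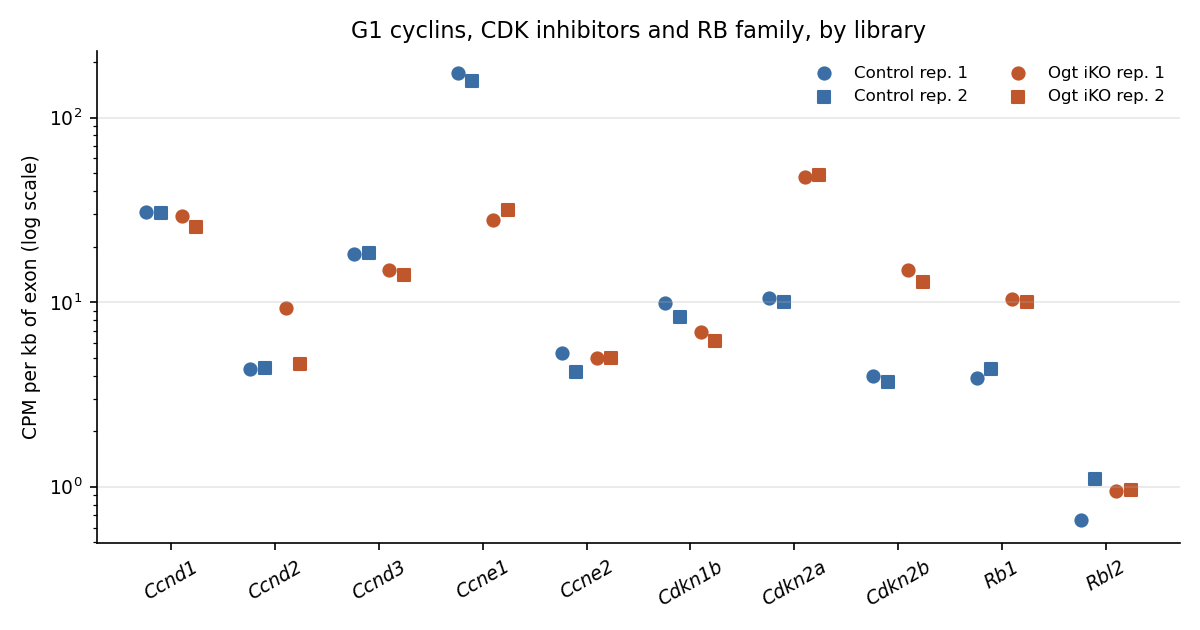
Level of each of the 10 genes in each library, as CPM per kilobase of exon on a log axis; circles are replicate 1, squares replicate 2, blue control and orange Ogt iKO. Ccne1 drops from the top position (158 to 174 in control) to 27.9 and 31.4, Cdkn2a, Cdkn2b and Rb1 rise in both treated libraries, and the 2 Ogt iKO values of Ccnd2 lie far apart.

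Among the CDK inhibitor genes, Cdkn2a and Cdkn2b rose. Cdkn2a, on chromosome 4 from 89274471 to 89294653, encodes p16INK4a and, in another reading frame, p19ARF, which restrains the p53 ligase MDM2. It had 12.3 and 11.7 CPM in the controls and 55.8 and 57.6 CPM in Ogt iKO, with little spread inside either group. On the log2 scale Cdkn2a rose by 2.24 (SE 0.0869, approximate 95% interval 2.04 to 2.44, adjusted p 7.24e-07, edgeR), a rise that 3.54% of tested genes equalled or passed. Counts per gene do not separate the ARF from the INK4a transcript, so which of them rose was not examined.

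Cdkn2b encodes p15INK4b and occupies chromosome 4 from 89306299 to 89311039, next to Cdkn2a. Its level went from 5.56 and 5.15 CPM in control to 20.7 and 17.8 CPM in Ogt iKO. Again the groups did not overlap, as was true of 83.2% of all genes tested. The log2 fold change was 1.85 (SE 0.152, adjusted p 1.879e-05, edgeR). Without Ogt iKO replicate 1, the library with the highest fibroblast sum, the log2 fold changes were 2.27 for Cdkn2a and 1.74 for Cdkn2b. In Ogt iKO replicate 2, which remains in that fit, 17 of the 22 fibroblast markers were below both controls and 5 above both, and, with feeders sorted out by the labels, the part of any remaining in the Cdkn2a and Cdkn2b values was not tested.

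Cdkn1b, the gene of p27, moved the other way. It lies on chromosome 6 from 134920401 to 134925513 and had 44.8 and 37.7 CPM in the controls and 31.2 and 28.1 CPM in Ogt iKO. Both treated values were below both controls, though control replicate 2 was nearer to them than control replicate 1. The log2 fold change was -0.48 (SE 0.106, adjusted p 0.004, edgeR), and it was -0.31 with library totals.

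Of the RB family, Rb1 passed the threshold and Rbl2 did not. Rb1 (chromosome 14 from 73183673 to 73325822) encodes RB, the pocket protein that holds E2F in G1. Its level was 23.4 and 26.0 CPM in control and 62.7 and 60.0 CPM in Ogt iKO. The treated libraries lay close together and well above both controls. The log2 fold change was 1.31 (SE 0.0871, adjusted p 6.701e-06, edgeR). Exons of Rcbtb2 or Lpar6 on the opposite strand cover 14.9% of the Rb1 exon length. Rcbtb2 had 1817 and 1377 counts in the controls and 2072 and 1786 in Ogt iKO, more than the 362 and 399 and the 1072 and 930 of Rb1. Lpar6 had 371 and 297 counts in the controls and 493 and 429 in Ogt iKO (called higher). How many reads counted for Rb1 came from the opposite strand was not tested, so the Rb1 count is uncertain.

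Rbl2, the gene of p130 (chromosome 8 from 91070057 to 91123844), had the lowest level of the 10 per kilobase of exon. It gave 77 and 128 counts (4.98 and 8.34 CPM) in the controls and 122 and 112 counts (7.14 and 7.22 CPM) in Ogt iKO, so the treated values lay between the controls. The log2 fold change of 0.11 had an approximate 95% interval from -0.44 to 0.66 (adjusted p 0.711, edgeR), and 21.0% of its exon length lies under opposite-strand exons of Aktip and Gm45464. Aktip had 792 and 800 counts in the controls and 720 and 644 in Ogt iKO, more than Rbl2 in every library. How many reads counted for Rbl2 came from the opposite strand was not tested, so the Rbl2 count is uncertain. The interval holds both rises and falls, so the direction of any change in Rbl2 is not settled.

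**Figure D2:**
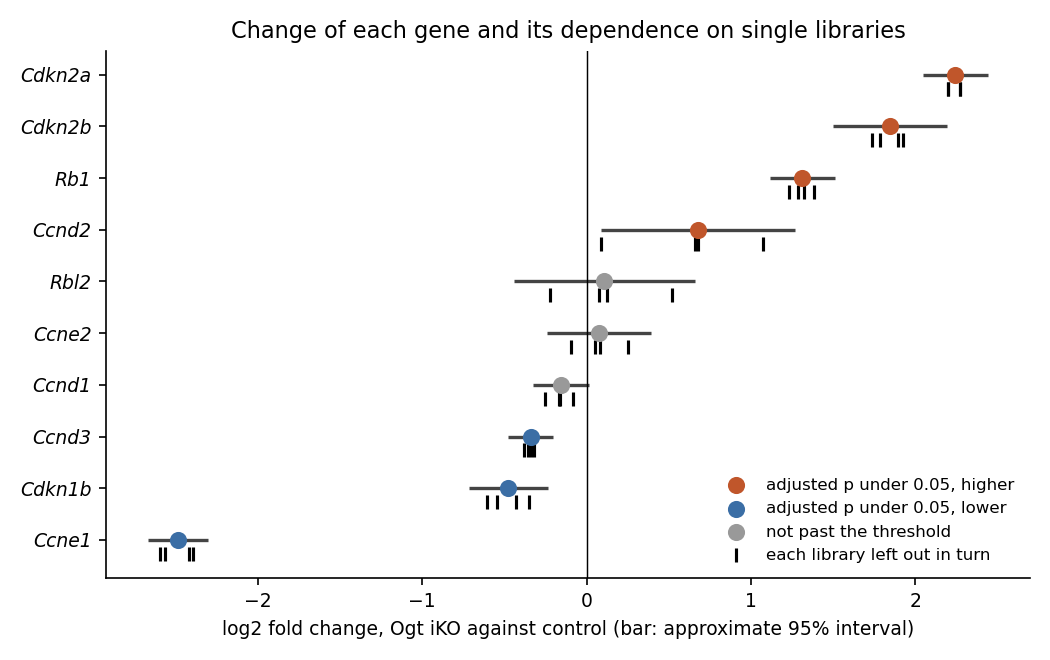
Log2 fold change of each gene in Ogt iKO against control (points, coloured by call), with its approximate 95% interval (bars) and the values when each library was left out in turn (ticks). Cdkn2a, Cdkn2b, Rb1 and Ccne1 keep their place whichever library is left out, while the ticks of Ccnd2 run from 0.09 to 1.07.

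D-type cyclins link growth signals to CDK4 and CDK6. Ccnd3 (cyclin D3, chromosome 17 from 47505051 to 47599691) had 160 and 162 CPM in the controls and 131 and 123 CPM in Ogt iKO. The groups did not overlap, and the log2 fold change was -0.34 (SE 0.0599, adjusted p 0.00117, edgeR). With library totals it was -0.17 and still past the threshold (adjusted p 0.0335). Bysl on the opposite strand, with 2112 to 2292 counts a library against 1905 to 2485 for Ccnd3, covers 4.11% of the Ccnd3 exon length, and the part of its reads in the Ccnd3 count was not tested.

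Ccnd1 (cyclin D1, chromosome 7 from 144929931 to 144939925) had 144 CPM in both controls and 138 and 120 CPM in Ogt iKO replicates 1 and 2. Its log2 fold change of -0.16 missed the threshold (approximate 95% interval -0.32 to 0.01, adjusted p 0.0911, edgeR). Without Ogt iKO replicate 1, the library rich in fibroblast markers, it was -0.25 (adjusted p 0.00776), and with library totals it was 0.01. Exons of LTO1 on the opposite strand cover 23.4% of the Ccnd1 exon length. LTO1 had 139 and 125 counts in the controls and 203 and 189 in Ogt iKO (called higher), and Ccnd1 had 1864 to 2360 a library. The part of opposite-strand reads in the Ccnd1 count was not tested.

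Ccnd2 (cyclin D2, chromosome 6 from 127125162 to 127152193) had 40.6 and 41.2 CPM in the controls, 87.4 CPM in Ogt iKO replicate 1 and 43.3 CPM in Ogt iKO replicate 2. Only the first of the treated libraries stands clear of the controls. The log2 fold change was 0.68 (SE 0.259, adjusted p 0.0451, edgeR), and without Ogt iKO replicate 1 it was 0.09 (adjusted p 0.473). DESeq2 did not call it (adjusted p 0.239), nor did edgeR with a robust estimate of the spread (0.347), with no filter (0.0782), without control replicate 1 (0.114) or without control replicate 2 (0.0981). The fibroblast sum was also highest in Ogt iKO replicate 1. By the labels, feeders were sorted out and YFP+ cells were selected. The part of fibroblast RNA in the Ccnd2 value was not tested. Opposite-strand exons of Gm43126 and 9330179D12Rik cover 7.86% of the Ccnd2 exon length.

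**Figure D3:**
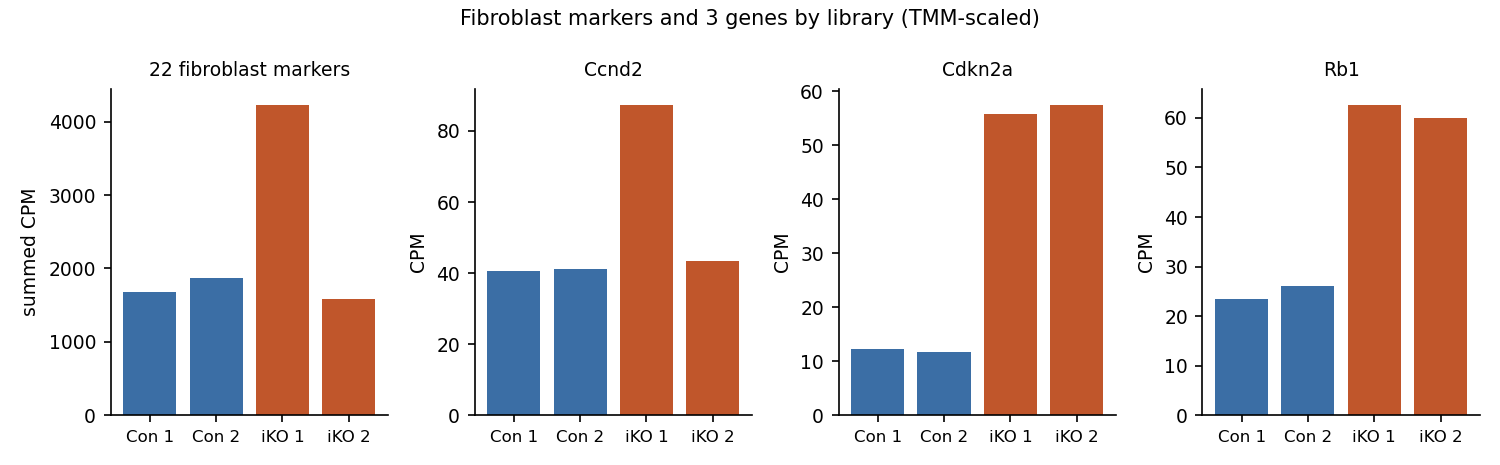
Summed CPM of the 22 fibroblast markers and CPM of Ccnd2, Cdkn2a and Rb1 in each library (bars start at 0; blue control, orange Ogt iKO). The marker sum and Ccnd2 stand out in Ogt iKO replicate 1 alone (4233 and 87.4 CPM). Cdkn2a and Rb1 are high in both treated libraries, and so are 5 of the 22 markers, Tagln among them. The part of fibroblast RNA in these values was not tested.

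Within the D family, Ccnd1 gave most of the reads per kilobase of exon in every library, with 57.6% and 57.2% in the controls and 54.7% and 57.8% in Ogt iKO. The share of Ccnd3 was 34.2% and 34.6% in the controls and 27.9% and 31.7% in Ogt iKO, and that of Ccnd2 was 8.12% and 8.21% against 17.4% and 10.4%. For Ccnd3 and Ccnd2 the groups did not overlap (exact two-sided permutation p 0.333, the smallest possible), and for Ccnd1 they did. Without Ogt iKO replicate 1 the share difference of Ccnd2 went from 5.73 to 2.27 percentage points, that of Ccnd3 from -4.60 to -2.70 and that of Ccnd1 from -1.13 to 0.43.

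**Figure D4:**
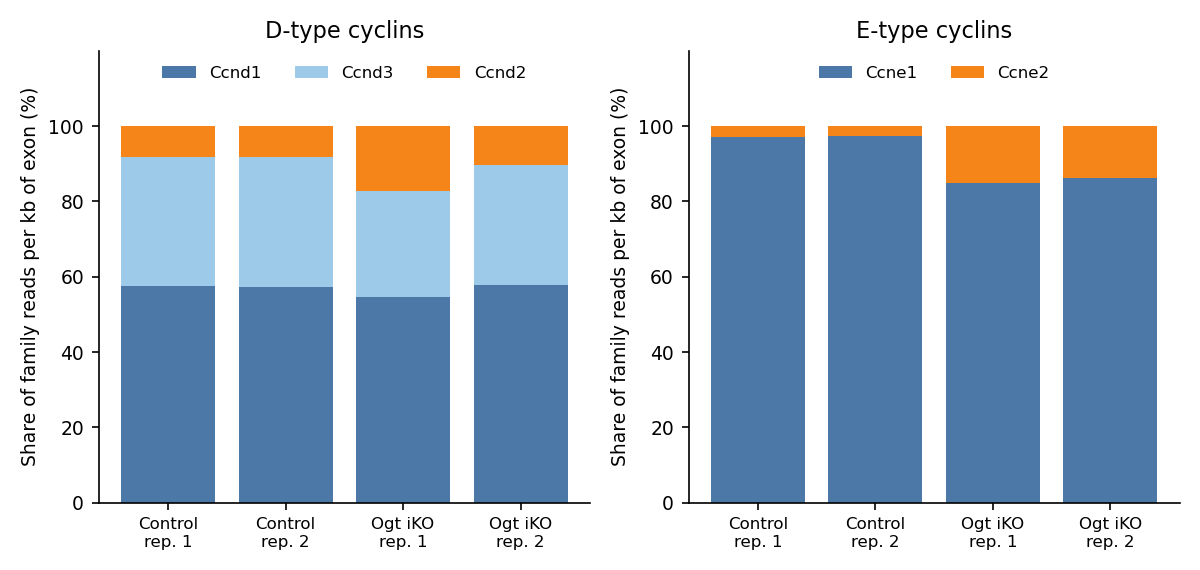
Share of each D-type cyclin (left) and E-type cyclin (right) among the reads of its family per kilobase of exon, as percent of the family in each library (stacked bars). The Ccne2 part is under 3% in both controls and widens to 15.1% and 13.7% with Ogt iKO, and the Ccnd2 part is widest in Ogt iKO replicate 1.

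The order of the 10 genes by level per kilobase of exon differed between the groups. In control, Ccne1 led with 166 ± 11.7 CPM per kb (SD, n = 2), followed by Ccnd1 (30.6 ± 0.118), Ccnd3 (18.3 ± 0.190), Cdkn2a (10.2 ± 0.366) and Cdkn1b (9.06 ± 1.11), the last 2 close to each other. Ccne2 (4.72), Ccnd2 (4.35), Rb1 (4.11) and Cdkn2b (3.85) came next, and each overlapped its neighbour in that order over the 2 libraries. Rbl2 was last at 0.881. In Ogt iKO, Cdkn2a led with 48.4 ± 1.07 CPM per kb (SD, n = 2), ahead of Ccne1 (29.6 ± 2.48) and Ccnd1 (27.4 ± 2.68), whose values overlapped. Ccnd3 (14.5) and Cdkn2b (13.9) overlapped too, and Rb1 (10.2) stood above Ccnd2 (6.95 ± 3.32), Cdkn1b (6.51) and Ccne2 (4.98) in both libraries, with Rbl2 at 0.950. Ccnd2 overlapped both Cdkn1b and Ccne2 there, with 9.29 in Ogt iKO replicate 1 and 4.60 in Ogt iKO replicate 2. These levels divide by the length of all annotated exons of a gene, so they are low for genes with long rarely used exons.

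The other genes of the pathway were taken from 7 lists, and the changes given for them are log2 fold changes from the same fit. Their counts of called genes stand against 33.2% higher and 32.0% lower among all genes tested. The lists were chosen with earlier results of these data known, so these shares are descriptions and no independent comparison. The 4 remaining CDK inhibitors all rose, and the median of their log2 fold changes was 1.39 against 0.024 for all genes. Cdkn1a (p21, a p53 target) went from 97.5 and 98.4 CPM to 348 and 343 CPM, a log2 fold change of 1.82. Cdkn1c (p57) rose by 1.71, Cdkn2c (p18INK4c) by 1.06 and Cdkn2d (p19INK4d) by 0.57 on the log2 scale (adjusted p from 2.855e-07 to 0.0061, edgeR). Cdkn2c, with 25 to 73 counts a library, was not called with DESeq2 (adjusted p 0.0511) or without control replicate 1 (log2 fold change 0.83, adjusted p 0.0514, edgeR). Cdkn1b was thus the 1 CDK inhibitor of the 7 examined here that fell.

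Of the 8 tested genes for kinases, cyclin A and their activators, 1 rose and 6 fell (75% lower, against 32.0% of all genes; median log2 fold change -0.38). The riser was Cdk6, a partner of D-type cyclins, from 26.9 and 26.5 CPM to 79.9 and 74.3 CPM (log2 fold change 1.53, adjusted p 2.559e-06, edgeR). Cdk2, the partner of cyclin E, fell by 0.69, the CDK-activating cyclin Ccnh by 0.65 and Ccna2 (cyclin A2) by 0.40. The remaining gene of the list, Ccna1, had too few counts to be tested.

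RB acts through E2F factors and the DREAM complex, and among 17 of their genes 3 rose and 11 fell (64.7% lower, against 32.0% of all genes; median -0.48). E2f8, an atypical repressor E2F, fell most, from 117 and 109 CPM to 27.6 and 29.2 CPM (log2 fold change -1.99, adjusted p 7.24e-07, edgeR). E2f3 fell by 0.93 and E2f4 by 0.80. The 3 that rose were E2f6 (0.91), a repressor that does not bind RB, Lin54 (0.56) and E2f5 (0.26), the last 2 named after their values were seen. The p107 gene Rbl1, also named afterwards as the remaining pocket protein, fell by 0.94 while Rb1 rose.

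Genes that E2F drives in S phase were lower in 19 of 20 cases and higher in 0 (95% lower, against 32.0% of all genes; median -0.85). The exception, Tyms, named after its value was seen, was at -0.15 with an adjusted p of 0.0681 (edgeR). The replicative helicase subunits Mcm3 and Mcm4 fell by 1.45 and 1.21, and geminin (Gmnn) by 1.13. All 10 mitotic genes were also lower (100% against 32.0% of all genes; median -0.69), with Top2a at -1.40, Ccnb1 at -0.82, Plk1 at -0.81 and Aurka at -0.74. No gene of either list was called higher in any of the alternative fits. The labels give no cell cycle measurement, so these are RNA levels only.

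Ligase genes that act on cyclins and p27 were called about as often as all genes, with 3 of 15 higher and 7 lower (66.7% called against 65.3%; median -0.07), so the count is no result about them. Skp2, which targets p27, fell by 0.64, and Fbxw7, which targets cyclin E, rose by 0.63. Fbxo5, an inhibitor of the anaphase-promoting complex, fell by 1.13, and that complex's activator Fzr1 by 0.71. The further 2 that rose, Cul4a (0.40) and Fbxo4 (0.95), were named after their values were seen. Among 15 transcription regulators of the G1 genes, 6 rose and 4 fell (median 0.014), again 66.7% called and close to the background. Ezh2, the Polycomb methyltransferase known to silence Cdkn2a and Cdkn2b, fell from 321 and 303 CPM to 108 and 114 CPM (log2 fold change -1.49), while Bmi1, a Polycomb subunit with the same known target, rose by 1.08. Mycn fell by 1.19 and Foxo4 rose by 0.85.

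**Figure D5:**
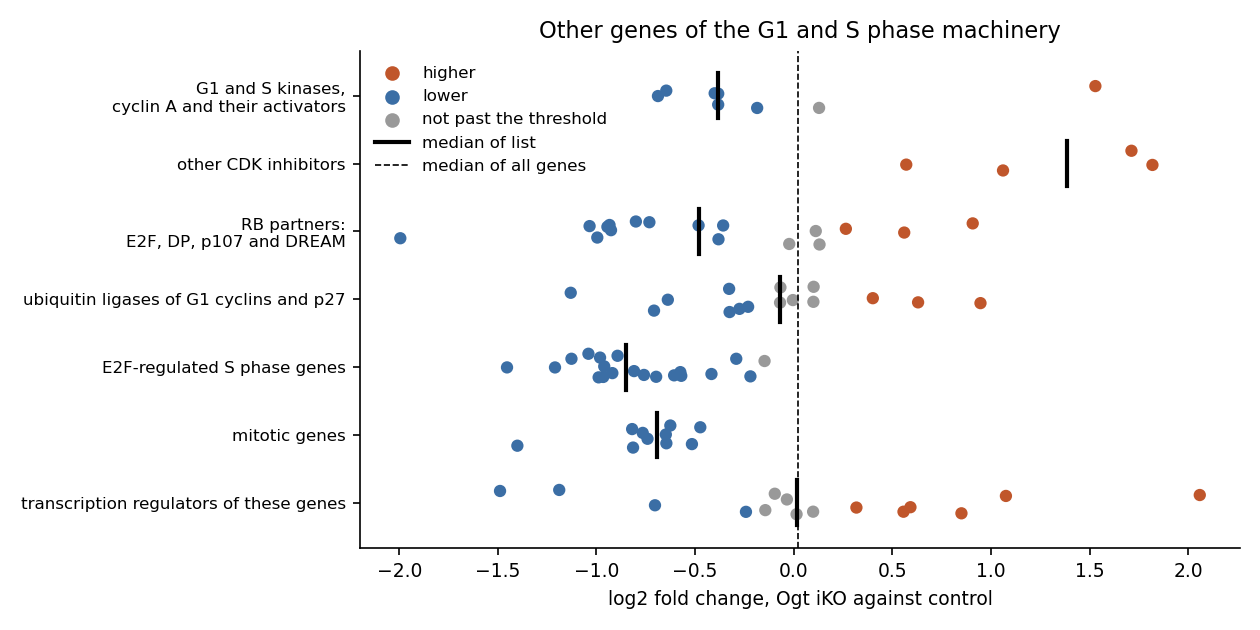
Log2 fold change of each tested gene of the 7 lists in Ogt iKO against control (points, orange higher, blue lower, grey not past the threshold; vertical scatter has no meaning), with the median of each list (black bar) and of all genes (dashed line). The 4 CDK inhibitors lie to the right, and the S phase and mitotic genes lie to the left.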

How the data were processed

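RNA was measured in 4 libraries, 2 per group, grouped by the titles in the labels. The authors deposited raw counts per gene symbol with no normalization. Per the submitters' processing notes, STAR and Picard were used with the build mm10; versions, roles, annotation and counting strand are not given in the sources used here. Per the labels' protocols, the kit was stranded.

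Counts were tested by the quasi-likelihood method of edgeR 4.0.16 (R 4.3.3; TMM, filterByExpr, all 4 libraries, no covariate), with Benjamini-Hochberg adjustment over all 14525 genes tested and a threshold of 0.05. Standard errors and approximate 95% intervals come from the fold change, its test statistic and its degrees of freedom. With 2 libraries a group the p-values measure only the spread between these libraries, which may be technical, since nothing says that they came from separate cultures. Replicates differed by more than sampling noise (chi-square per degree of freedom 5.98 and 3.66). In simulated data with 200 changed genes, the fit recovered 52.2% of 1.5-fold, 73.1% of 2-fold and 93.9% of 4-fold changes, with 5 false calls. Far fewer genes changed in that simulation than were called in the data. Totals ran from 14668489 to 16504204 counts, so a count of 0 allows up to 3 counts, or 0.182 to 0.205 CPM on raw totals; this covers counting error only.

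Exon lengths, positions and overlaps came from GENCODE M21 (GRCm38, the assembly of mm10). Genes named were the 10, Ogt, all 4 other CDK inhibitors, the 4 smallest adjusted p of each pathway list, leading markers, and the 3 nearest patterns to the members with the largest rise and fall. Named outside this rule were genes that overlap or neighbour a member, Ccna1 (not tested), Elf5 (at 0 in 3 libraries), and those marked in the text as named after their values were seen. A single S phase gene that this rule names is not reported here by name. Members and lists were chosen with earlier results of these data known. Alternatives were other size factors (RLE, upper quartile, library totals), DESeq2 1.42.0, other filters, a robust spread, a replicate block, an adjusted p under 0.01 and each library left out.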

Additional observations from a re-analysis of the deposited data

How the results depend on the processing

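Cdkn2a, Cdkn2b and Rb1 (higher) and Ccne1, Ccnd3 and Cdkn1b (lower) kept their direction and an adjusted p under 0.05 in all 12 alternative fits, with highest adjusted p values from 2.379e-06 for Ccne1 to 0.0335 for Ccnd3. Ccnd2 had a log2 fold change of 0.66 and was not called with DESeq2 and with no filter, and was not called at 0.68 with a robust spread. Leaving out 1 library, log2 fold changes ran from 0.088 to 1.07 for Ccnd2, from -0.25 (then called) to -0.085 for Ccnd1, from -0.10 to 0.25 for Ccne2 and from -0.22 to 0.52 for Rbl2, the share differences from -2.69 to 0.43 percentage points for Ccnd1, from 2.27 to 9.18 for Ccnd2 and from -6.50 to -2.70 for Ccnd3, and the kinase genes called higher from 1 to 2. Library totals turned Ccnd1 to 0.013, gave 2 kinase genes and 5 RB partner genes higher, and gave 5 ligase genes higher and 4 lower, because totals shift all values upward. Upper quartile factors also gave 2 kinase genes higher. Raw counts not divided by length gave a share difference of -14.5 percentage points for Ccne1 and 14.5 for Ccne2. Over all genes, calls ran from 3943 to 4780 higher and from 3940 to 4722 lower with 1 library left out, where the lone library is assumed to vary like the others. The labels do not say that a replicate number marks a shared culture. Deviations of same-numbered libraries had r 0.086 across genes, and with the replicate block 4922 genes were higher and 4719 lower, with the same 7 of the 10 genes called and Ccnd2 at 0.61 (adjusted p 0.0011). Of the other CDK inhibitors, 3 of 4 were called with DESeq2 and without control replicate 1, Cdkn2c being lost in both. Rbl2 had 77 to 128 counts a library and an SE of 0.241, and Cdkn2b, with 86 and 79 counts in control, an SE of 0.152; how far depth or the spread between libraries limits each was not tested.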

Other observations

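The neighbours of Cdkn2a, Cdkn2b and the cyclin E genes were read from their positions, a choice made after seeing the data. Mtap, the nearest tested gene on the lower side of Cdkn2a at a gap of 93390 bases, fell (log2 fold change -0.37, SE 0.0579, adjusted p 0.000587, edgeR), with control counts of 3035 and 2853 and treated counts of 2493 and 2321. Dmrta1, 368397 bases beyond Cdkn2b, rose from 3 and 5 counts to 14 and 18 (log2 fold change 1.89, SE 0.483, adjusted p 0.00815, edgeR). Beside Ccne1, Uri1 fell by 0.48 and 1600014C10Rik was at 0.34 and not called (adjusted p 0.0885, edgeR). Trp53inp1, a p53 target 16972 bases from Ccne2, rose by 1.45 while Ccne2 did not pass the threshold.

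Likeness of pattern was measured as the distance between centred log2 CPM values over the 4 libraries, among genes within 1 log2 unit of mean level. Of 4147 such genes, Amot (distance 0.115), Arap2 (0.133) and Fst (0.135) were nearest to Cdkn2a, with log2 fold changes of 2.25, 2.12 and 2.19. Of 2480 genes, Oga (0.266), which encodes the enzyme that removes O-GlcNAc, Bzw2 (0.400) and Psat1 (0.512) were nearest to Ccne1, with log2 fold changes of -2.56, -2.09 and -2.00. With 4 libraries in 2 groups, such likeness mostly reflects a like change between the groups.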
